A study of Mus musculus with 6 samples.

Results

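The genes described here make the ribosome but are not part of the finished particle: RNA polymerase I (Pol I) and its factors, the small nucleolar ribonucleoproteins (snoRNPs) that modify ribosomal RNA, the assembly factors of both ribosomal subunits, and Rn45s, the row for the 45S pre-ribosomal RNA. They were chosen by symbol, 40 of the 23282 rows of each count table, and all 40 were found and passed the filter on low counts. The samples were primary mouse acinar cells (pancreatic cells that secrete digestive enzymes) of strain C57BL/6J: 3 libraries labelled wild type (control) and 3 labelled ERRgamma -/- (cKO), a conditional knock-out of the nuclear receptor ERRγ, encoded by Esrrg. Cells of both groups received the growth factor EGF, serum, antibiotics and a trypsin inhibitor in Waymouth's medium. Neither the Cre driver, the deleted part, the time in culture nor the age and sex of the mice is stated in the sources used here. Libraries are numbered, but no label ties a number to its own animal, and the p-values below therefore cover only differences among libraries of a group, possibly technical ones.

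Ribosome production starts in the nucleolus, where Pol I copies the ribosomal DNA repeats into 1 long precursor. Box C/D and box H/ACA snoRNPs modify this RNA, and assembly factors then fold it, cleave it and join it to ribosomal proteins until the subunits leave for the cytoplasm. Cells that make much protein, such as acinar cells, need many ribosomes, and the transcription factor MYC is a known activator of this programme.

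The tables held raw counts of 3' tags (1 tag near the poly(A) end of a transcript). Totals ran from 23009041 to 25183465 counts in control and from 15170173 to 16963782 in cKO. TMM scaling takes most genes as unchanged, and after it the effective library sizes were 7522015 to 8487842 in control and 33153786 to 59957469 in cKO. Levels below are CPM, scaled to the effective size, and "rose" and "fell" are relative to that bulk. Scaled to library totals instead, the median log2 fold change of all tested genes moved from 0.10 to 3.36 and all 40 genes, those called lower below included, were called higher in cKO, as were 96.4% of all tested genes. Esrrg had 0 counts in each control library and 0, 9 and 1 in cKO, and since the deleted part is not named a 3' tag gives no check of the genotype.

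The cell markers differed between the groups. Acinar markers summed to between 673313 and 782886 CPM in control and between 15548 and 102847 in cKO, with 10 of 10 lower (edgeR, adjusted p under 0.05). Fibroblast markers (9 of 10 higher) summed to between 729 and 823 CPM in control and between 3596 and 5127 in cKO. Monocyte and macrophage markers (10 of 10 higher) ran from 73.2 to 90.0 and from 224 to 479 CPM. Other lists did not all rise: duct markers (2 higher and 3 lower of 7) summed to 225 ± 22.7 CPM in control and 112 ± 7.29 in cKO, endothelial markers (1 higher and 2 lower of 6) to 30.5 ± 1.83 and 17.7 ± 3.88, islet markers (0 higher and 1 lower of 7) to 741 ± 186 and 631 ± 217, and lymphocyte markers (2 higher and 0 lower of 8) to 2.60 ± 2.59 and 9.25 ± 1.37 (SD, n = 3 each). No marker of these lists was at 0 in all controls. In bulk RNA, fewer cells of a type and less RNA per cell cannot be told apart, and the part of these shifts in the results below was not tested.

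Ribosome biogenesis genes kept close to the bulk of the transcriptome in the cKO libraries. Of the 40 genes, 7 fell and 0 rose (edgeR quasi-likelihood test, Benjamini-Hochberg adjusted p under 0.05). That is 17.5% of the 40 genes lower and 0% higher, while among all 13132 tested genes 44.7% were called, 20.7% lower and 24.0% higher. By unadjusted p of the same test, 9 of the 40 genes were under 0.05, 1 of them, Npm1, with a higher level. Of all 13132 tested genes, 6774 were under 0.05 by unadjusted p, 3663 of them with a higher level. The median log2 fold change of the 39 genes other than Rn45s was -0.11, beside 0.10 for all tested genes. Their quartiles were -0.50 and 0.16, beside -0.60 and 0.98 for all genes. By level alone, the control and cKO libraries did not overlap in 12 of the 40 genes, 8 lower and 4 higher in cKO, while this held for 56.2% of all genes (25.4% lower, 30.7% higher). For 24 of the 33 genes not called, the 95% interval of the fold change lay within 2-fold in either direction, and for 9 it reached beyond.

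**Figure D1:**
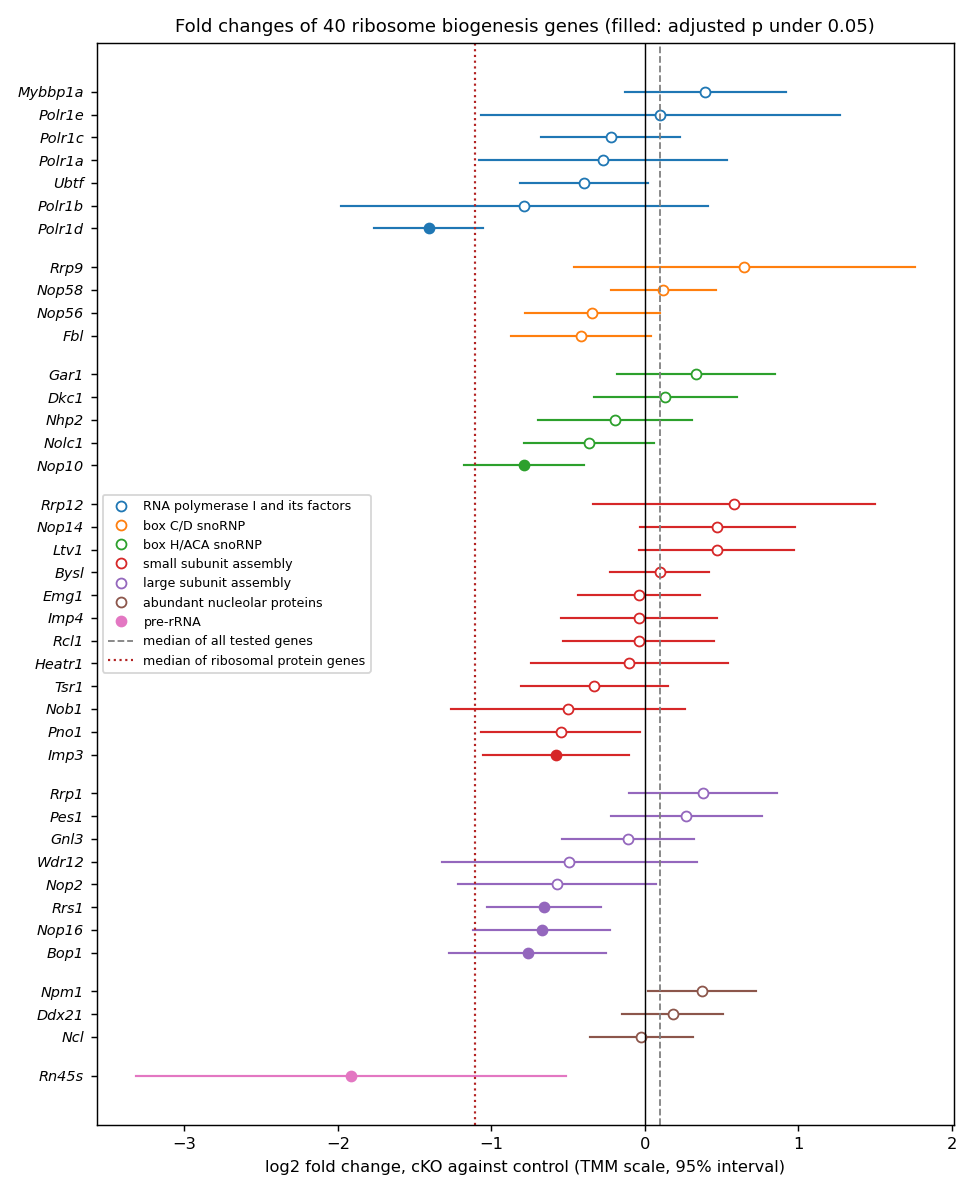
Log2 fold changes, cKO against control on the TMM scale (x axis), with 95% intervals for each of the 40 genes, coloured by role. Filled points are the 7 genes with an adjusted p under 0.05, all left of 0. The dashed line at 0.10 is the median of all tested genes and the dotted line at -1.11 that of ribosomal protein genes.

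Pol I is built from many subunits, of which Polr1a and Polr1b form the catalytic centre. Polr1d encodes a small subunit that Pol I shares with RNA polymerase III, where it pairs with the product of Polr1c. Polr1d was at 63.7, 55.4 and 47.4 CPM in control and at 18.9, 23.4 and 20.5 CPM in cKO. Every cKO library lay below every control library. It fell by 1.41 ± 0.17 (log2, SE; edgeR adjusted p = 1.04e-05), the largest fall among the 39 protein-coding genes. Its partner gene Polr1c was at 9.44, 9.66 and 7.62 CPM in control and at 7.39, 8.29 and 7.22 CPM in cKO, which overlap (log2 fold change -0.22, 95% interval -0.68 to 0.23).

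The ratio of the counts of both genes within a library does not depend on any scaling. There were 6.75, 5.73 and 6.22 Polr1d counts per Polr1c count in control and 2.55, 2.82 and 2.83 in cKO. The pair thus changed unequally, by -1.19 on the log2 scale, with no overlap between the groups. The exact 2-sided permutation p was 0.1, the smallest possible (0.175 after adjustment over 14 pairs). The pair was chosen with the levels in view, so the ratio is no separate support for the Polr1d call.

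The remaining Pol I genes did not pass the test. The largest subunit gene Polr1a had 5.32, 2.24 and 2.92 CPM in control and 2.73, 2.14 and 3.72 CPM in cKO. Polr1b had 1.99, 1.41 and 1.02 against 0.488, 0.905 and 1.17 CPM, from 8 to 70 counts per library. These ranges overlap, and the interval of Polr1b, -1.98 to 0.41, is wide enough to hold both no change and a large fall. The subunit gene Polr1e had 0.798, 0.707 and 3.43 CPM in control, with control replicate 3 far above the other two, and 1.57, 2.11 and 1.62 CPM in cKO. Ubtf, which encodes the upstream binding factor that holds ribosomal DNA open, had 16.4, 13.5 and 15.7 CPM in control and 14.0, 9.86 and 10.7 CPM in cKO (-0.40 ± 0.20; adjusted p = 0.114). Mybbp1a, a nucleolar protein that binds MYB and Pol I, had 11.2, 6.36 and 7.49 against 8.46, 12.5 and 11.8 CPM (0.39 ± 0.25; adjusted p = 0.211).

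Counts of Rn45s, the product of Pol I, were 534318, 466408 and 549450 in the control libraries and 1002718, 851988 and 558524 in the cKO libraries. A pre-ribosomal RNA carries no regular poly(A) tail, the ribosomal DNA is a repeat, and the treatment of reads with several matches is not stated, so the counts are no direct measure of Pol I output. Rn45s took 2.19%, 1.85% and 2.39% of control counts and 6.61%, 5.02% and 3.41% of cKO counts, higher in every cKO library (exact 2-sided permutation p = 0.1, the smallest possible with 3 against 3). Per effective library the order turned round: 71034, 54950 and 69789 CPM in control and 16890, 25698 and 9315 CPM in cKO. The log2 fold change was -1.92 ± 0.66 (adjusted p = 0.0276 in edgeR). Leaving out any 1 control library ended the call (log2 fold change -2.02 to -1.85; adjusted p = 0.0848 to 0.108), as did leaving out cKO replicate 3 (-1.61; 0.146). The call also ended with the replicate number as a block (-2.03; 0.0687), on totals without enzyme genes and Rn45s (-1.01; 0.132) and when scaled to ribosomal protein counts (-0.81; 0.160), and on library totals the sign turned (1.23).

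Set beside the counts of the other 39 genes, the Rn45s counts were lower in every cKO library. There were 102, 80.7 and 107 Rn45s counts for each count of the other 39 genes in control, and 30.7, 38.3 and 15.4 in cKO. The means were 96.5 ± 13.8 and 28.1 ± 11.7 (SD, n = 3 each), and the groups did not overlap. The 39 genes summed to 677 ± 20.7 CPM in control and 609 ± 60.4 CPM in cKO (SD, n = 3 each), close to the bulk. This ratio therefore largely repeats the fall of Rn45s on the TMM scale and is no separate support for it. Per ribosomal protein count there were 3.01, 2.45 and 3.29 Rn45s counts in control and 1.95, 2.04 and 0.992 in cKO, also without overlap.

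The snoRNPs carry the enzymes that modify ribosomal RNA: fibrillarin (Fbl), a methyltransferase held in box C/D particles by Nop56 and Nop58, and dyskerin (Dkc1), a pseudouridine synthase held in box H/ACA particles by Nhp2, Gar1 and Nop10. Nop10 was at 42.4, 44.8 and 36.3 CPM in control and at 18.1, 28.8 and 24.8 CPM in cKO, and fell by 0.79 ± 0.18 (adjusted p = 0.00275). Its groups did not overlap. Dkc1, with 13.3, 7.66 and 11.8 CPM against 10.7, 12.8 and 12.4 CPM, did not pass (0.13, 95% interval -0.33 to 0.60), nor did Nhp2 (-0.19, -0.70 to 0.31) or Gar1 (0.33, -0.18 to 0.85).

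All 4 box C/D genes missed the threshold, which 44.7% of all tested genes passed. Nop58 was at 26.6, 22.9 and 24.1 CPM in control and at 23.2, 28.1 and 28.6 CPM in cKO (0.12, -0.22 to 0.46). Fbl was at 8.38, 11.3 and 9.40 against 6.64, 7.99 and 7.21 CPM, with every cKO library lower (-0.42, -0.88 to 0.04; adjusted p = 0.128). Nop56 had a log2 fold change of -0.34 (-0.78 to 0.10). Rrp9, the U3 snoRNP protein, had the highest fold change of the 40 genes, 0.65 ± 0.52 (adjusted p = 0.337), on 12, 3 and 14 counts in control. Nolc1, a chaperone of snoRNPs on their way to the nucleolus, had -0.36 (-0.79 to 0.06).

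Among 12 genes of small subunit assembly 1 was called, 8.33% lower beside 20.7% of all tested genes. Imp3, a protein of the U3 particle that pairs the snoRNA with the precursor, had 35.0, 40.3 and 25.7 CPM in control and 16.8, 30.0 and 20.9 CPM in cKO. The groups overlap, since cKO replicate 2 lay above control replicate 3. It fell by 0.58 ± 0.22 (adjusted p = 0.0475), at the edge of the threshold. The call ended when control replicate 1 or 2, or cKO replicate 1 or 3, was left out (adjusted p = 0.140 to 0.218), in DESeq2 (0.0698) and with a floor of 10 CPM in 3 libraries (0.178).

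Several small subunit factors lay near the bulk. Bysl was at 35.8, 31.3 and 33.4 CPM in control and at 34.7, 39.2 and 33.5 CPM in cKO, with an interval of -0.23 to 0.42. Emg1, a methyltransferase, had -0.04 (-0.44 to 0.36), Imp4 -0.04 (-0.55 to 0.47), Rcl1 -0.04 (-0.53 to 0.45) and Heatr1, a scaffold of the processome, -0.10 (-0.74 to 0.54). Nop14 (0.47 ± 0.24) and Ltv1 (0.47 ± 0.24), a late assembly factor, were higher in every cKO library but missed the threshold (adjusted p = 0.120 and 0.123). Some factors that did not pass had values below 0: Nob1, the nuclease that makes the final cleavage, -0.50 (-1.26 to 0.26), its partner Pno1 -0.55 (-1.07 to -0.03; adjusted p = 0.0791) and the GTPase-like Tsr1 -0.33 (-0.81 to 0.15). Without cKO replicate 2, Pno1 passed the test with a log2 fold change of -0.76 (adjusted p = 0.0146). Rrp12, with 9 to 17 counts in control, had 0.58 (-0.34 to 1.50).

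Large subunit assembly held 3 of the 7 calls among 8 genes, 37.5% lower beside 20.7% of all tested genes. Rrs1, which brings the 5S particle to the precursor, had 16.9, 21.1 and 18.3 CPM in control and 11.9, 11.9 and 11.9 CPM in cKO, and fell by 0.66 ± 0.17 (adjusted p = 0.00640). Nop16 had 10.6, 9.90 and 11.6 against 5.90, 7.33 and 6.92 CPM and fell by 0.67 ± 0.21 (adjusted p = 0.0162). Bop1, a subunit of the PeBoW complex with Pes1 and Wdr12, had 6.65, 10.1 and 10.2 against 4.70, 5.52 and 5.67 CPM and fell by 0.76 ± 0.24 (adjusted p = 0.0175). In all 3 genes every cKO library lay below every control library. For Bop1 the call ended when control replicate 2, control replicate 3 or cKO replicate 1 was left out (adjusted p = 0.0741, 0.0722 and 0.0598). For Nop16 the same held of control replicate 3, cKO replicate 1 and cKO replicate 3 (0.0552, 0.0677 and 0.0565). Polr1d, Nop10 and Rrs1 were called whichever library was left out.

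The PeBoW partner Pes1 did not move with Bop1. It had 5.18, 6.60 and 6.22 CPM in control and 6.99, 7.81 and 6.97 CPM in cKO (0.27, -0.22 to 0.76). There were 1.28, 1.54 and 1.63 Bop1 counts per Pes1 count in control and 0.672, 0.707 and 0.813 in cKO, without overlap. Per Wdr12 count, Bop1 overlapped between the groups, at 2.57 ± 1.92 and 1.67 ± 0.430 (SD, n = 3 each; exact permutation p = 0.6). Wdr12 (-0.49, -1.32 to 0.34), the methyltransferase gene Nop2 (-0.57, -1.21 to 0.07), the stem cell GTPase gene Gnl3 (-0.11, -0.54 to 0.32) and Rrp1 (0.38, -0.11 to 0.86) did not pass.

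**Figure D2:**
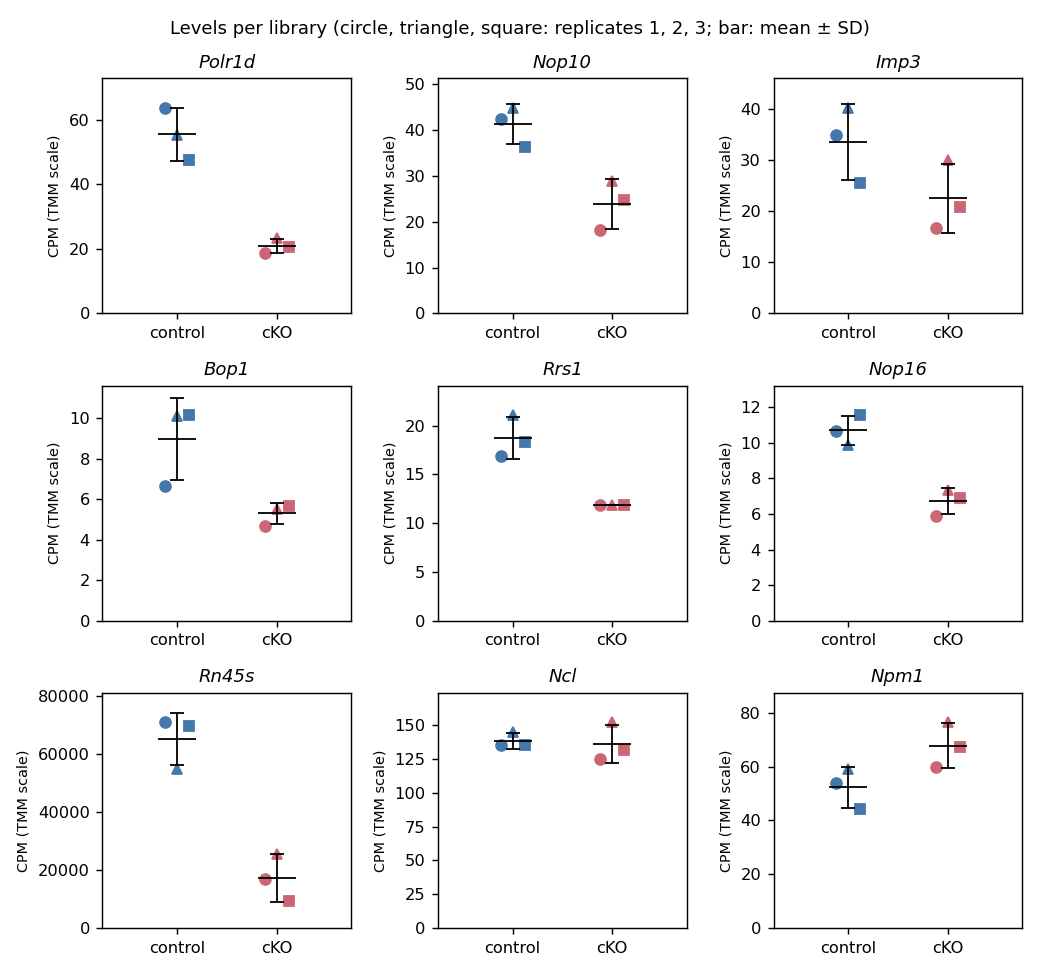
Levels in CPM of the TMM-scaled library (y axis, from 0) in each control and cKO library for the 7 genes called lower and for Ncl and Npm1; bars are mean ± SD of 3 libraries. Control and cKO points are apart in 6 of the 7 called genes and overlap in Imp3, and Ncl lies at the same height in both groups.

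Nucleolin (Ncl) and nucleophosmin (Npm1) are abundant nucleolar proteins, and Ddx21 is a nucleolar helicase. Ncl was at 135, 145 and 135 CPM in control and at 125, 152 and 132 CPM in cKO. Its groups overlapped, with a 95% interval of -0.36 to 0.31. Npm1 was at 53.7, 59.0 and 44.1 against 59.7, 76.5 and 67.2 CPM, higher in every cKO library (0.37 ± 0.17; adjusted p = 0.0785). Ddx21 was at 35.6, 30.0 and 28.8 against 34.0, 36.6 and 36.4 CPM (0.18, -0.15 to 0.51). With that floor of 10 CPM, 4192 genes passed, 34.4% of them called higher and 34.0% lower. Npm1 (0.59; adjusted p = 0.00711), Ddx21 (0.40; 0.0237) and Rrp1 (0.60; 0.0388) were then called higher. The floor also moved the scale: without it these genes had 0.37, 0.18 and 0.38. Emg1, Gnl3, Ncl and Rcl1, with no call, turned from below 0 to between 0.11 and 0.19. Rrp1 was above 10 CPM in every cKO library but at 8.25 and 6.86 CPM in control replicates 2 and 3. These 3 calls are therefore not read as rises, and the part of the filter in them was not tested.

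Ratios between genes of the same complex were computed for 14 pairs in 5 complexes, chosen with the levels in view. In 8 pairs the groups did not overlap, each with an exact 2-sided permutation p of 0.1 (0.175 after adjustment over the 14 pairs), which is the smallest p possible. The share among ratios of other genes was not computed. For single genes, the groups did not overlap in 56.2% of all tested genes, so the count of 8 is not read as particular to these complexes. Nop10 was lower against each of its 3 box H/ACA partners in every cKO library. Against Dkc1 there were 4.04 ± 1.57 Nop10 counts in control and 1.98 ± 0.276 in cKO (SD, n = 3 each). Nop56 was lower against Nop58, at 0.482 ± 0.0456 and 0.351 ± 0.0264 (SD, n = 3 each). In the other direction, Dkc1 per Nhp2 count and Nop58 per Fbl count were higher in every cKO library.

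The contrast with the ribosome's own proteins was large. Of 78 cytosolic ribosomal protein genes 75 fell (96.2%) and 0 rose, beside 20.7% and 24.0% of all tested genes. Their median log2 fold change was -1.11 on the TMM scale. It was 2.10 on library totals, -0.20 on totals without enzyme genes and Rn45s, and -0.51 with Casp9 also left out. Their summed level was 22425 ± 1198 CPM in control and 10210 ± 2100 CPM in cKO (SD, n = 3 each). The 39 biogenesis genes summed to 677 ± 20.7 and 609 ± 60.4 CPM. Per 100 ribosomal protein counts there were 2.95, 3.03 and 3.09 counts of biogenesis genes in the control libraries and 6.36, 5.33 and 6.45 in the cKO libraries, a ratio of the means of 2.001. This ratio needs no scaling, and the lowest cKO library, replicate 2, lay above every control library. The difference between the medians of both lists was 1.00 on the log2 scale and lay between 0.88 and 1.16 when 1 library was left out. Transcript length also differed between the lists. Length is that of the longest annotated protein-coding transcript of each gene, which need not be the one that gave the tags. Its median was 941.5 bases in ribosomal protein genes and 2491 bases in the 39 genes. Among all tested genes, transcripts of up to 1000 bases had a median log2 fold change of -0.37, with 40.9% called lower, and those over 2000 bases one of 0.15, with 18.5% lower. The class of up to 1000 bases includes many of the ribosomal protein genes themselves, so it is no separate background for them. The rank correlation (Spearman) of length and fold change was 0.09 over all tested genes and 0.09 within ribosomal protein genes. It was 0.23 for the 39 genes and 0.15 for 117 of the further biogenesis genes described below. The part of length in the contrast was not tested. Processed pseudogenes make the absolute level of ribosomal protein genes uncertain.

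**Figure D3:**
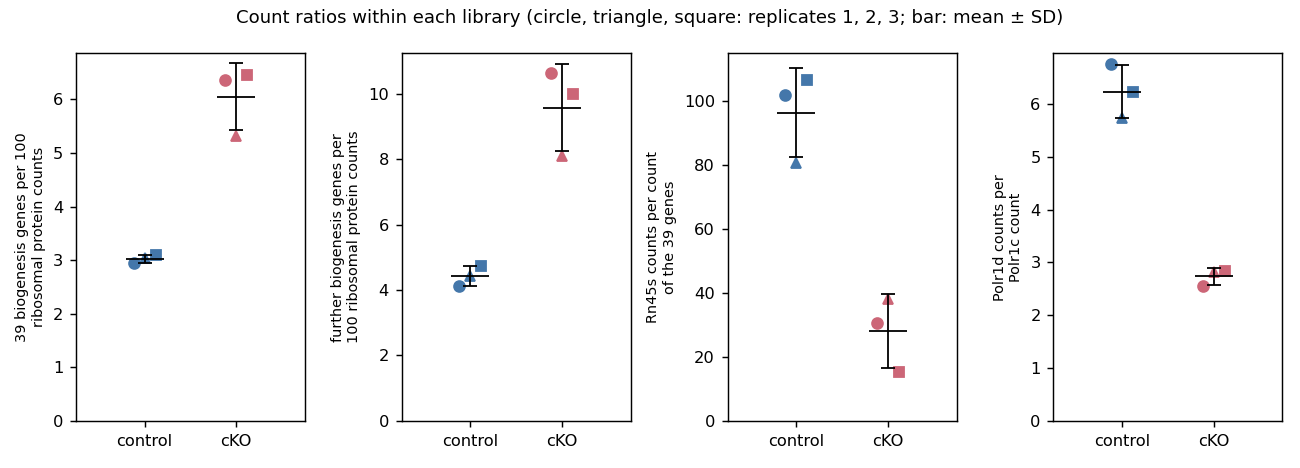
Ratios of counts within each library (y axes, from 0; no scaling enters), with mean ± SD of 3 libraries per group. Biogenesis genes per 100 ribosomal protein counts rise from about 3.02 to 6.05, the 123 further genes from 4.43 to 9.57, Rn45s per count of the 39 genes falls from 96.5 to 28.1, and Polr1d per Polr1c count falls from 6.23 to 2.73, with no overlap in any panel.

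Of 123 further biogenesis genes, all tested, 17 fell (13.8%) and 7 rose (5.69%), beside 20.7% and 24.0% of all tested genes. Their median was -0.07 beside 0.10 for all genes. Among 9 further Pol I subunits and factors 0 were called. Polr2l, whose product is also part of Pol I, fell and is listed with RNA polymerase II below. Small subunit factors fell in 7 of 46 cases and rose in 3: the kinase gene Riok3 fell by 0.95 ± 0.17 and Mphosph10 by 0.80 ± 0.18, and Wdr3 rose by 0.79 ± 0.20 and the helicase gene Ddx52 by 0.83 ± 0.29. Large subunit factors fell in 8 of 54 cases and rose in 3: the helicase gene Ddx55 (-1.04 ± 0.22) and Wdr74 (-1.02 ± 0.27) fell, and Pelp1 (1.32 ± 0.20) and Ddx24 (0.86 ± 0.15) rose. Of 14 genes of the RNA exosome, which trims the precursor, Exosc7 (-0.93 ± 0.28) and Exosc5 (-0.72 ± 0.27) fell and Exosc8 (0.93 ± 0.26) rose. Per 100 ribosomal protein counts these 123 genes gave 4.43 ± 0.304 counts in control and 9.57 ± 1.33 in cKO.

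**Figure D4:**
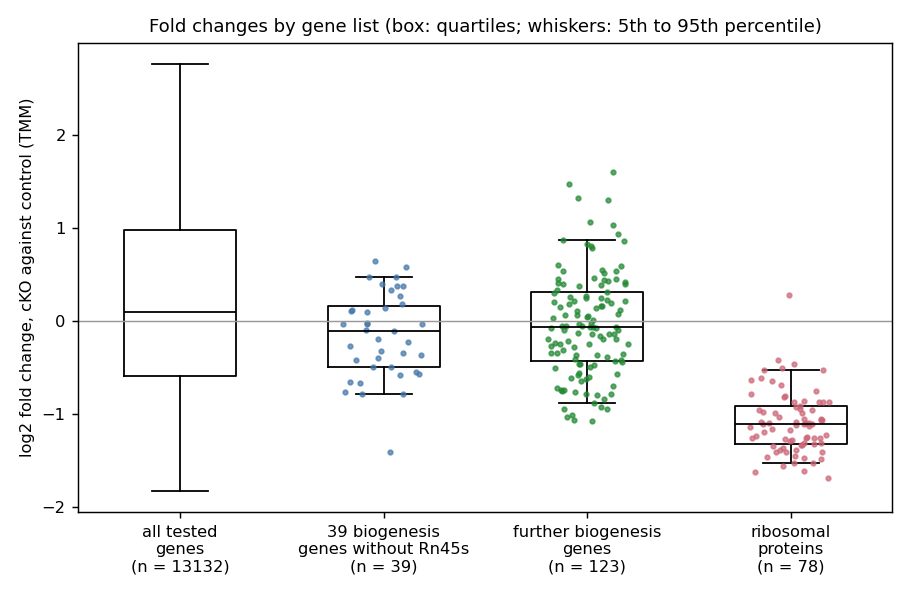
Log2 fold changes on the TMM scale (y axis) for all 13132 tested genes, the 39 biogenesis genes without Rn45s, the 123 further biogenesis genes and the 78 ribosomal protein genes; boxes are quartiles, whiskers the 5th to 95th percentile and points single genes. Both biogenesis lists centre near 0 (medians -0.11 and -0.07) and ribosomal proteins at -1.11.

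RNA polymerases II and III share some small subunits with Pol I. Among 21 tested genes of RNA polymerase III and its factors 7 fell (33.3%) and 1 rose (4.76%), with a median of -0.42. Of all tested genes 20.7% fell and 24.0% rose. Polr3k fell by 1.56 ± 0.24 and Polr3g by 2.05 ± 0.37, while Maf1, the repressor of that enzyme, rose by 1.01 ± 0.23, from 6.20 ± 1.54 to 12.6 ± 1.38 CPM (SD, n = 3 each). Among 13 subunits of RNA polymerase II 5 fell (38.5%) and 2 rose (15.4%). Polr2l, a small subunit common to all nuclear polymerases, fell by 1.38 ± 0.16 and Polr2m by 1.30 ± 0.19, and the catalytic subunit genes Polr2a (0.57 ± 0.19) and Polr2b (0.57 ± 0.16) rose.

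Regulators of ribosome production moved in both directions. Myc, on 23 to 60 counts in control and 280 to 539 in cKO, was at 4.48 ± 2.26 and 7.98 ± 1.31 CPM (SD, n = 3 each). It rose by 0.82 ± 0.31 (adjusted p = 0.0421), though control replicate 2, at 7.07 CPM, lay above cKO replicate 1 at 6.50. Its relative Mycl had too few counts to be tested. In the MYC network and growth list 6 of 15 tested genes fell (40%) and 2 rose (13.3%), beside 20.7% and 24.0% of all tested genes. Mlx (-1.93 ± 0.21) and the ribosomal S6 kinase gene Rps6kb1 (-1.51 ± 0.16) fell, and Mnt (1.54 ± 0.40), a MYC antagonist, rose. Of 7 tested p53 genes 4 rose (57.1%) and 0 fell, with Cdkn1a at 1.49 ± 0.17 and Trp53 at 1.79 ± 0.38. Proliferation genes rose in 8 of 13 cases (61.5%) and fell in 0. Mki67 rose by 1.60 ± 0.26 and Top2a by 1.88 ± 0.24. Their summed level was 52.2 to 67.1 CPM in control and 119 to 185 CPM in cKO. Whether these came from acinar cells or from the cell types whose markers rose in the same libraries was not tested.

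In the promoters, 34 of the 40 genes had a RefSeq entry (GRCm38.p6, 250 bases before to 50 after the start). The E-box CACGTG, the palindrome that MYC and its partners bind, is the same on both strands and was found in 7 of these 34 genes (20.6%), in 18 of 98 further biogenesis genes (18.4%), in 6 of 58 ribosomal protein genes (10.3%) and in 1107 of 9643 tested genes (11.5%). The ERR element TCAAGGTCA, searched on both strands, was in 0 of the 34 genes and in 0.332% of tested genes. The E-boxes are shown with up to 12 bases on both sides, in capitals and 5′ to 3′ on the gene's strand, to let the flanks be compared. Those of Imp4 and Nop2 start 121 and 60 bases before the RefSeq start. The others start at base 3 (Pes1), 25 (Tsr1), 29 (Ltv1), 38 (Pno1) and 41 (Mybbp1a) of the transcript, and 0 of the 4 called genes with an entry held one.
Imp4 (chr1:34439696-34439725, plus): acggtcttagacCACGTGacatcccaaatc
Nop2 (chr6:125131811-125131840, plus): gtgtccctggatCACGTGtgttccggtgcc
Pes1 (chr11:3963965-3963994, plus): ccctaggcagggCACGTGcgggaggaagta
Tsr1 (chr11:74898092-74898121, plus): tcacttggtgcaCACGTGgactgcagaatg
Ltv1 (chr10:13193092-13193121, minus): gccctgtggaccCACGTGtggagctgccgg
Pno1 (chr11:17211540-17211564, minus): tgtacaaccacgCACGTGttcctct
Mybbp1a (chr11:72441355-72441376, plus): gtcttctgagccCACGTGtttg

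The log2 fold changes of these 7 genes ran from -0.57 (Nop2) to 0.47 (Ltv1). Of the 7, 0 were called, beside 17.5% of the 40 genes and 44.7% of all tested genes. So few genes cannot be told apart from the 40 by this count. Polr1d, the protein-coding gene with the largest fall, has neither motif in the 250 bases before its RefSeq start (chr5:147077096-147077345). These bases lie inside the GENCODE gene, which starts at 147077050, and the sequence before that start was not searched.

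By GENCODE M21 (GRCm38), Polr1d lies on chromosome 5 (147077050 to 147111597, plus strand), Nop10 on chromosome 2 (112261926 to 112263269, plus), Rrs1 on chromosome 1 (9545408 to 9547455, plus) and Bop1 on chromosome 15 (76452989 to 76477277, minus). Exons of a gene on the other strand overlap 17 of the 39 protein-coding genes, and of those called lower only Bop1, where Mroh1 lies opposite. The strand setting of the counting is not stated, so reads from where exons of Bop1 and Mroh1 overlap cannot be told apart. The extent of that overlap was not measured. The same limit holds for Pes1, Wdr12, Dkc1, Nhp2, Nop56 and Imp4, which enter the count ratios between genes of a complex. Of the 39 genes, 6 hold snoRNA genes within their bounds, 18 in all: Nop56, Nop58, Ncl, Gnl3, Tsr1 and Dkc1. Of these 6, 0 were called, beside 17.5% of the 40 genes and 44.7% of all tested genes, again too few to be told apart. Their log2 fold changes lay between -0.34 (Nop56) and 0.13 (Dkc1).

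The libraries of a group also differed among themselves. Across the 39 genes the coefficient of variation of the CPM had a median of 18.9% in control, where counts ran from 3 to 1233, and of 11.1% in cKO, where they ran from 29 to 7913. The cKO replicate 2 gave the highest cKO level in 27 of the 39 genes and replicate 1 the lowest in 23. Replicate 2 also held the highest acinar marker sum and the lowest fibroblast and macrophage sums of the cKO libraries. Without it, Pno1 joined the 7 calls and the median of the 39 genes was -0.10.

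The calls depended on the scale and on single libraries. With 1 library left out, 4 to 8 of the 40 genes were lower and 0 or 1 higher: 4 lower without control replicate 2, control replicate 3 or cKO replicate 3, and 1 higher without control replicate 1 (Rrp1) or cKO replicate 1 (Npm1). Of all genes, 16.9%, 17.1%, 16.9%, 16.9%, 20.2% and 15.5% were then lower and 19.5%, 19.7%, 19.5%, 19.0%, 24.4% and 17.8% higher, for control replicates 1 to 3 and cKO replicates 1 to 3 in turn. DESeq2 called 6 of the 40 genes lower, beside 21.4% of all genes, and 0 higher, beside 24.6%. Scaled to ribosomal protein counts, 27 genes were higher and 0 lower, beside 63.7% and 4.55% of all genes. Scaled to totals without enzyme genes and Rn45s, 25 were higher and 1 lower, beside 57.6% and 6.62%, and with Casp9 also left out 17 were higher and 1 lower, beside 45% and 10.1% of all genes. On library totals 0 were lower, beside 0.404%. With the replicate number as a block, 6 were lower and 0 higher, beside 19.1% and 22.0%. The median of the 39 genes minus that of all genes was -0.21 on the TMM scale and -0.34 without a filter. It was -0.31 to -0.16 when 1 library was left out. With the floor of 10 CPM the difference was 0.14, but over another set of genes. Only 20 of the 40 genes and 4192 of all genes were then tested.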

How the data were processed

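RNA of 3 control and 3 cKO libraries (500 ng each) was made into libraries with a Lexogen QuantSeq kit, per the labels' protocols. The authors deposited raw counts per gene symbol, 1 table per library. The submitters' processing notes name Bowtie2, edgeR, mm10 and GRCm38 without a version or a role, and the counting tool is not given in the sources used here. PCR copies cannot be removed from such counts, and a count of 0 allows 0.0500 to 0.399 CPM (3 counts), for counting error only.

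Counts were tested with edgeR 4.0.16 in R 4.3.3 (filterByExpr with at least 10 counts, 15 in total, TMM factors, robust glmQLFit and glmQLFTest) over all 13132 rows that passed, with Benjamini-Hochberg adjustment and a threshold of 0.05. The standard error is the log2 fold change divided by the square root of F, and intervals are at 95%. The fit was also run on counts simulated from its own dispersions and effective sizes, with few genes changed. Such counts cannot check the TMM assumption that most genes are unchanged. All 40 genes were accounted for. Values per library were given for called genes, all Pol I genes, Rn45s and the extremes, and for further genes chosen after their values were seen. Other lists name up to 2 genes per direction by smallest p, with Myc, Mycl and Mki67. Genes and lists were chosen with earlier results of these data known. Alternatives used RLE factors, library totals, totals without enzyme genes and Rn45s (also without Casp9, chosen after seeing the data), ribosomal protein counts, other filters, DESeq2 1.42.0, thinning, a replicate block and each library left out. Replicates of a group differed by more than sampling noise (chi-square per degree of freedom 14.6 to 370).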

Additional observations from a re-analysis of the deposited data

How the results depend on the processing

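The calls of the 40 genes were kept under RLE factors and without a filter; without a filter 4 genes with no call turned sign, to at most 0.02. Signs below that turned in genes with a call on either scale are given by gene, and those in genes with no call as counts. On library totals 12653 genes were higher and 53 lower, with 40 of the 40 and 123 of the 123 further genes higher and 0 lower in both lists, and the median of the 39 genes was 3.10. Signs turned for 26 genes: Polr1a (3.06), Polr1b (2.45), Polr1c (3.03), Polr1d (1.84), Ubtf (2.92), Fbl (2.82), Nop56 (2.89), Nhp2 (3.07), Nop10 (2.42), Nolc1 (2.86), Heatr1 (3.15), Imp3 (2.60), Imp4 (3.22), Rcl1 (3.19), Emg1 (3.22), Pno1 (2.63), Nob1 (2.78), Tsr1 (2.90), Bop1 (2.48), Wdr12 (2.70), Rrs1 (2.61), Nop2 (2.70), Nop16 (2.57), Gnl3 (3.10), Ncl (3.21) and Rn45s (1.23). On totals without enzyme genes and Rn45s 7570 genes were higher and 869 lower, 25 and 1 of the 40 and 73 and 0 of the 123, with a median of 0.80 and Rn45s at -1.01 (adjusted p = 0.132, edgeR). Signs turned for 24 genes, 7 of them with no call (0.13 to 0.66), the others being Polr1c (0.69), Ubtf (0.53), Nop56 (0.57), Nhp2 (0.73), Nop10 (0.12), Nolc1 (0.55), Heatr1 (0.82), Imp3 (0.33), Imp4 (0.88), Rcl1 (0.88), Emg1 (0.88), Tsr1 (0.59), Bop1 (0.15), Rrs1 (0.26), Nop16 (0.25), Gnl3 (0.80) and Ncl (0.89). With Casp9 also left out, chosen after seeing the data, the values were 5907 and 1322, 17 and 1, and 52 and 0, with a median of 0.49, Rn45s at -1.32 (0.0794), and 19 turned signs, 14 of them with no call (0.04 to 0.57), the others being Imp3 (0.015), Rcl1 (0.57), Emg1 (0.57), Gnl3 (0.49) and Ncl (0.58). Scaled to ribosomal protein counts they were 8361 and 598, 27 and 0, and 92 and 0, with a median of 1.03 and Rn45s at -0.81 (0.160). Signs turned for 24 genes, 6 of them with no call (0.37 to 0.93), the others being Polr1c (0.94), Ubtf (0.80), Fbl (0.74), Nop56 (0.81), Nhp2 (0.97), Nop10 (0.35), Nolc1 (0.77), Heatr1 (1.06), Imp3 (0.55), Imp4 (1.13), Rcl1 (1.10), Emg1 (1.12), Tsr1 (0.82), Bop1 (0.39), Rrs1 (0.51), Nop16 (0.48), Gnl3 (1.03) and Ncl (1.13). The medians of all genes were then 3.36, 1.02, 0.70 and 1.27 in turn. With a floor of 10 CPM, 1443 genes were higher and 1425 lower, 3 and 4 of the 20 genes tested and 10 and 2 of 30, with a median of 0.18 and 4 turned signs with no call (0.11 to 0.19). Fewer genes were tested.

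With 1 library left out, 2388 to 3411 genes were higher and 2076 to 2829 lower, 0 to 1 and 4 to 8 of the 40 and 5 to 8 and 8 to 15 of the 123, with a median of -0.18 to -0.06 and Rn45s between -2.30 and -1.61. Between 1 and 4 genes with no call turned sign. The replicate numbers did not pair the libraries (correlations of deviations -0.03 to 0.01). With the replicate block Rn45s was at -2.03 (adjusted p = 0.0687) and 6 of the 40 genes were lower. Calls gained were Ubtf (-0.56; 0.0492) without cKO replicate 1 and Fbl (-0.63; 0.0432) after thinning to equal effective size. Depth limits Polr1b, Polr1e, Rrp9 and Rrp12 most, with 3 to 27 counts in control. The cause of these shifts was not tested.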
